A study of Mus musculus with 9 samples.

Results

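Skeletal muscle genes were followed through 9 bulk RNA-seq libraries of mouse prostate. The set holds 42 genes of the sarcomere, of calcium handling and of muscle energy supply, taken by symbol from a list, and each symbol matched 1 of the 54532 rows of the deposited count table. The libraries come from 3 genotypes at Srd5a2, the gene of a 5-alpha-reductase that makes dihydrotestosterone: wild type (WT), heterozygous (Het, Srd5a2+/-) and null (KO, Srd5a2-/-), with 3 libraries each. Heterozygous males had been mated with WT C57BL6 females, and null males came from breeding on their offspring. No other treatment is named. The sources used here give neither the age of the mice nor the lobes taken, and do not say whether a library is 1 animal or a pool. P-values therefore measure only how these samples vary, and that variation may be technical.

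Striated muscle contracts when calcium leaves the sarcoplasmic reticulum, binds troponin on the thin (actin) filament and lets the heads of the thick (myosin) filament pull. Fast and slow fibres build the same machine from different gene copies, so the copies in use tell the fibre types apart. Prostate stroma is rich in smooth muscle, which uses other actins and myosins and has no troponin. Striated muscle of the urethral sphincter and the pelvic floor lies next to the gland in the body.

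Total counts ran from 16233392 to 24017791 per library. The Het libraries and WT library 3 had 16878 to 17940 genes with at least 1 read, and the other 5 had 19752 to 20566. The FPKM values (reads scaled to gene length and to library size) used below are the authors' and allow levels of different genes to be compared. CPM (reads scaled to the TMM-adjusted library size) is used for 1 gene or list between libraries. In bulk tissue, fewer cells of a type and less RNA per cell cannot be told apart.

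The 2 genes that mark the tissue did not tell the same story. Acta1, the skeletal muscle alpha-actin (GRCm38, chromosome 8, 123891769 to 123894751), had reads in every library, at 209, 418 and 639 FPKM in WT libraries 1 to 3, at 87.2, 408 and 340 in Het libraries 1 to 3 and at 366, 1189 and 399 in KO libraries 1 to 3. The 3 genotypes overlapped, and KO library 2 stood above the rest. Ckm, the muscle creatine kinase that buffers ATP (chromosome 7, 19404776 to 19422841), was at 3.06, 4.39 and 19.9 FPKM in WT, 0.819, 10.2 and 5.60 in Het and 9.54, 156 and 19.4 in KO. Acta1 exceeded Ckm 7.62-fold in KO library 2 and 20.5-fold to 107-fold in the other 8 libraries. Reads on Acta1 alone therefore did not mark the libraries in which the other skeletal muscle genes were high.

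Promoter sequences are shown for these 2 markers and for Myh4 and Myh2, the highest and the lowest of 4 clustered myosin heavy chain genes in KO library 2. Each is the 250 bases before the RefSeq start, on GRCm38.p6, read 5′ to 3′ along the gene: Acta1 at chr8:123894776-123895025 (minus strand), Ckm at chr7:19410844-19411093 (plus), Myh4 at chr11:67237562-67237811 (plus) and Myh2 at chr11:67170777-67171026 (plus). Capitals mark matches, on either strand, to the E-box CANNTG, bound by myogenic factors, the MCAT element CATTCC, the CArG box and the MEF2 element.
Acta1: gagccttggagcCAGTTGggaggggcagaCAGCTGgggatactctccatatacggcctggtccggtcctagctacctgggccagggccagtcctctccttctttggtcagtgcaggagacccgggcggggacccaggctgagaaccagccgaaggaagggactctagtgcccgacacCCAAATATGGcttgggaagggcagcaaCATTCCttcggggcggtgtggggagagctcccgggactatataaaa
Ckm: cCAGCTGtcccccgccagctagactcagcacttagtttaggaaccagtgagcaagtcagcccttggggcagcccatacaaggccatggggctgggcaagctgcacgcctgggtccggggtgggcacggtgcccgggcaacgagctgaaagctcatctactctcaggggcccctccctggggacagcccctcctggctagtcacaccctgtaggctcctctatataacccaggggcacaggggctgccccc
Myh4: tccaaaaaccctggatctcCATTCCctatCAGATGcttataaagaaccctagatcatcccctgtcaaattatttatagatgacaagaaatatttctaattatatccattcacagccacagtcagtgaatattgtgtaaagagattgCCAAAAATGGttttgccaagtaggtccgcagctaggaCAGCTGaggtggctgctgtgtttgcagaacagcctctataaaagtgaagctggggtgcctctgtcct
Myh2: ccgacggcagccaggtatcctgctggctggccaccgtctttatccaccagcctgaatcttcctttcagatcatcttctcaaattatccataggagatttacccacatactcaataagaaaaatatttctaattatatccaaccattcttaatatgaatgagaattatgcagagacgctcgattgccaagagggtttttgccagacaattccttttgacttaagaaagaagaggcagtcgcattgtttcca
Acta1 and Myh4 each held 2 E-boxes, 1 MCAT element and 1 CArG box, Ckm held 1 E-box, and Myh2 held none of the 4 motifs in this window. RefSeq starts were found for 32 of the 42 members. An E-box was present in 26 of these 32 (81.2%) and in 64.0% of the 20449 gene promoters of the same length, and the MCAT element in 9 (28.1%) against 12.1%. The CArG box was in 3 (9.4%) against 1.3%, and the MEF2 element in 2 (6.2%) against 0.5%. These are matches of letters, and no match in this window says nothing about a factor.

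The amount of muscle RNA differed between libraries of 1 genotype as much as between genotypes. The 42 members together held 0.0412% (95% Clopper-Pearson interval 0.0403 to 0.0421), 0.0811% (0.0799 to 0.0823) and 0.163% (0.161 to 0.165) of all reads in WT libraries 1 to 3. In Het libraries 1 to 3 they held 0.0186% (0.0180 to 0.0193), 0.0753% (0.0742 to 0.0764) and 0.0691% (0.0679 to 0.0703). In KO libraries 1 to 3 they held 0.103% (0.102 to 0.105), 0.923% (0.918 to 0.928) and 0.149% (0.147 to 0.151). In this share, which includes Acta1, WT library 3 lay above KO libraries 1 and 3, and KO library 2 held most. The means were 0.0951 ± 0.0620% for WT, 0.0544 ± 0.0311% for Het and 0.392 ± 0.461% for KO (± SD of 3 libraries). Without KO library 2 the KO mean was 0.126%. These intervals hold counting error alone, as reads carrying no molecular identifier are not independent molecules.

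Acta1 alone made up 79.8%, 86.8% and 58.8% of the members' reads in WT libraries 1 to 3 and 71.0%, 75.4% and 75.2% in Het libraries 1 to 3. Its part was 57.5% in KO library 1, 21.7% in KO library 2 and 12022 of 28625 reads in KO library 3. The other 41 members together had 1603, 2263 and 13459 reads in WT, 1011, 4443 and 3161 in Het and 7809, 117328 and 16603 in KO. Counted without Acta1, the 3 KO libraries and WT library 3 stood above the other 5 libraries. The share of WT library 3 was then 0.0670%, below KO library 3 (0.0865%) and above KO library 1 (0.0439%). Members with at least 1 read numbered 40, 39 and 38 in KO and 36 in WT library 3. The other libraries had reads on 25 and 29 members (WT 1 and 2) and on 21, 23 and 25 (Het 1 to 3).

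The sums of the fast and of the slow members parted. The 14 members typical of fast fibres had 207, 244 and 7326 reads in WT libraries 1 to 3, 178, 511 and 645 in Het libraries 1 to 3, and 3528, 74895 and 9578 in KO libraries 1 to 3. KO libraries 1 to 3 and WT library 3 were thus at least 3528 reads, and no other library passed 645. The 7 members typical of slow fibres had 152, 452 and 319 reads in WT, 123, 496 and 281 in Het and 490, 728 and 310 in KO, and these sums overlapped between genotypes. Of the 7, Tnnt1, Tnni1 and Myoz2 had every KO library above every WT and Het library in CPM. Over all genes tested, 8.14% had every KO library above every WT library and 7.8% above every Het library. The share with both was not computed. The margin was small for Tnnt1, with 5.91 CPM in KO library 3 and 5.73 in Het library 3. Tnni1 had 13, 14 and 13 reads in KO and at most 11 in WT and Het. Summed FPKM of fast over slow members was 1.87, 0.514 and 28.8 in WT, 1.18, 1.32 and 2.88 in Het and 8.40, 103 and 34.3 in KO. The ratio was above 8 in 4 libraries and under 3 in the other 5. Within the slow list, Tnnt1 and Casq2 held all but 0 to 71 reads in each library, so the ratio rests mainly on these 2 slow genes. Not every slow gene parted from the fast ones: Myl3, a slow light chain outside the set, was high in the same 4 libraries, and Myoz2 had reads in KO alone.

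**Figure D1:**
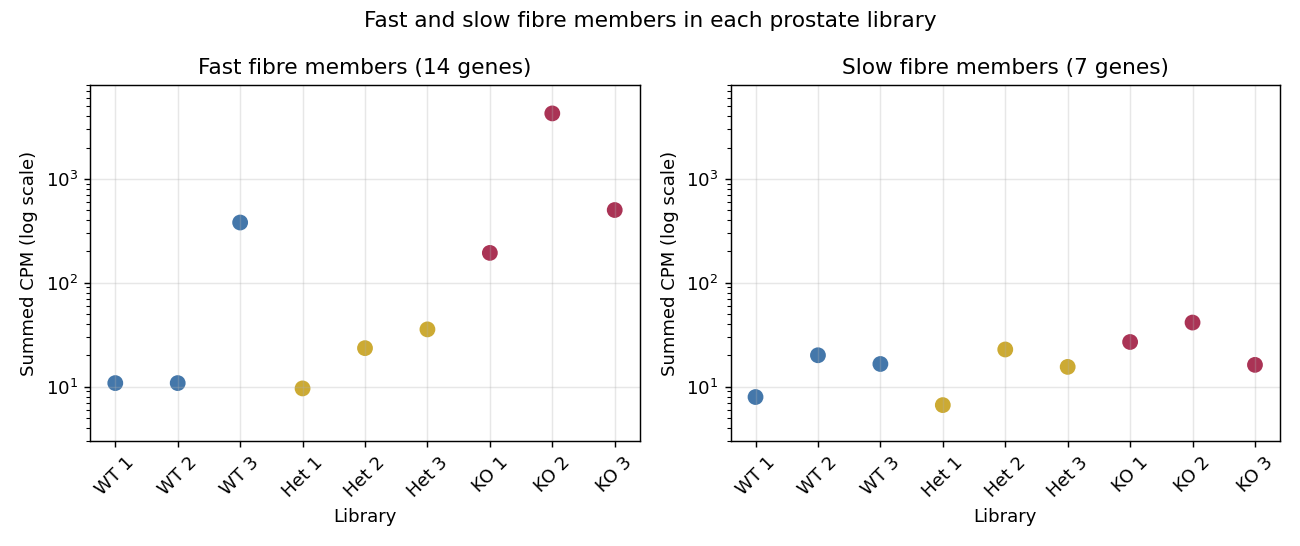
Summed CPM (log scale) of the 14 fast fibre members (left) and the 7 slow fibre members (right) in each of the 9 libraries, 1 point per library, coloured by genotype. Fast members ran from 9.61 to 4256 CPM, with WT library 3 among the KO libraries, while slow members stayed between 6.64 and 41.4 CPM.

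Myh4, the heavy chain of the fastest (IIb) fibres (chromosome 11, 67238029 to 67260446), was at 0, 0 and 10.1 FPKM in WT, 0 in each Het library and 4.48, 177 and 17.1 in KO. A count of 0 allows 0.133 to 0.165 CPM in those 5 libraries (3 counts). Myh1, the IIx heavy chain, was at 0, 0.333 and 7.41 FPKM in WT, 0.341, 0.101 and 0.215 in Het and 4.35, 76.5 and 7.92 in KO. The same 4 libraries were high for both genes, and WT library 3 lay inside the KO range for each.

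Myh2, the IIa heavy chain and their neighbour (chromosome 11, 67171027 to 67197517), did not share this order. It stood at 0.0213, 0.321 and 0.0572 FPKM in WT, 0.418, 0.0129 and 0.130 in Het and 0.432, 1.48 and 0.457 in KO, so WT library 3 was not high. Myh8, the perinatal heavy chain, reached 0.594 FPKM in WT library 3 and 0.488, 8.85 and 2.03 in KO libraries 1 to 3, with at most 0.0602 elsewhere. Of the summed FPKM of these 4 heavy chains, Myh4 took 55.5% in WT library 3 and 45.9%, 67.1% and 62.1% in KO libraries 1 to 3, and Myh2 took 0.316%, 4.43%, 0.561% and 1.66%. Myh7, the slow and cardiac heavy chain (chromosome 14), had 2 reads in WT library 2, 5 in Het library 1, 7 in KO library 1 and none in the other 6. The heavy chains are similar in sequence and could share reads.

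**Figure D2:**
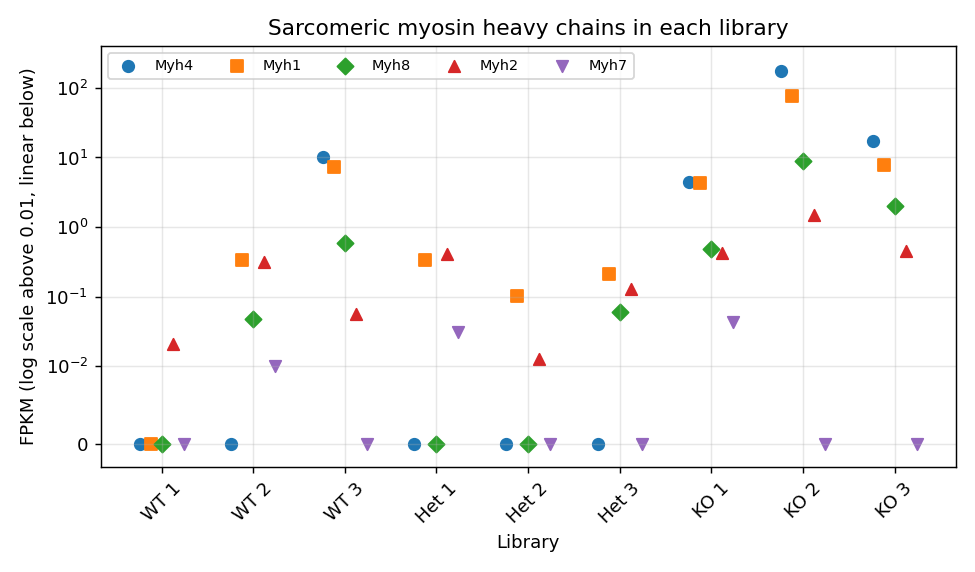
FPKM of 5 sarcomeric myosin heavy chain genes in each library, on a scale that is logarithmic above 0.01 and linear below it; each symbol is 1 gene. Myh4 and Myh1 lead in WT library 3 and the 3 KO libraries, Myh4 is at 0 in the other 5, and Myh7 is at or near 0 in all 9.

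The fast light chains had the same 4 high libraries. Mylpf, the fast regulatory light chain, was at 1.39, 0.813 and 26.4 FPKM in WT, 0.561, 0.389 and 0.411 in Het and 14.4, 231 and 34.6 in KO. Myl1, the fast essential light chain, was at 0.0978, 0.167 and 8.58 in WT, 0, 0.421 and 2.13 in Het and 7.69, 167 and 19.2 in KO. Both had a gap between the KO and Het libraries and an overlap of KO and WT through WT library 3. Mybpc2, the fast myosin-binding protein C, ran from 0 to 0.179 FPKM in WT libraries 1 and 2 and the Het libraries, and was 1.37 in WT library 3 and 0.795, 23.3 and 2.61 in KO. Its slow-type relative Mybpc1 was at 4.38, 1.83 and 6.75 FPKM in WT, 0.383, 8.14 and 9.79 in Het and 3.89, 26.8 and 4.81 in KO. Het libraries 2 and 3 exceeded KO libraries 1 and 3 for Mybpc1, which took 20.4 of the 22.6 summed CPM of the 10 thick filament genes in WT library 1, 36.9 of 38.9 in Het library 2 and 44.8 of 52.8 in Het library 3. Myl2, the slow and ventricular regulatory light chain, had 0 reads in all 9.

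On the thin filament the fast troponins followed the fast myosins. Tnnt3, fast troponin T (chromosome 7, 142498836 to 142516009), was at 0.0961, 0.191 and 31.5 FPKM in WT, 0.650, 0 and 0.413 in Het and 23.3, 324 and 40.7 in KO. Tnni2, the fast inhibitory subunit, whose gene lies next to it (142441808 to 142444410), was at 0.373, 0.317 and 31.3 in WT, 0.471, 1.01 and 0.983 in Het and 13.3, 188 and 33.9 in KO. For both genes the lowest of the 4 high libraries was KO library 1. The long actin ruler Neb (nebulin) reached 4.34 FPKM in KO library 2 and stood at 0.169 in WT library 3, with 0.246 and 0.624 in KO libraries 1 and 3.

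Slow troponins were low in all libraries. Tnnt1, slow troponin T, stood at 0.483, 2.29 and 0.717 FPKM in WT, 2.11, 2.23 and 2.57 in Het and 5.14, 5.89 and 2.61 in KO. Tnni1, the slow inhibitory subunit, had 8, 1 and 11 reads in WT, 0, 0 and 4 in Het and 13, 14 and 13 in KO. Tnnc1, the slow and cardiac calcium-binding subunit, had 9, 1 and 4 reads in WT, 0 in each Het library and 1, 12 and 0 in KO. Tnnt1 and Tnni1 had all KO libraries above all WT libraries, as had 8.14% of all genes tested.

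Tnnc2, the calcium-binding subunit of fast fibres (chromosome 2, 164777161 to 164779967, minus strand), was at 0 reads in all 9 libraries, KO library 2 included. In GENCODE vM21, 592 of its 800 exonic bases (74.0%) are also exonic in Ube2c, a mitotic gene on the opposite strand, the largest shared part of any member. The next were Mb with 31.9% and Atp2a1 with 21.9%, and both had reads. Ube2c itself had 143, 366 and 190 reads in WT, 76, 120 and 138 in Het and 64, 55 and 143 in KO, and was lowest in KO library 2. The sources used here do not say whether the counting used strand, and the part of the shared exons in the zero counts was not tested.

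Acta1 moved partly with the smooth muscle actin. Acta2, smooth muscle alpha-actin, was at 523, 1007 and 1172 FPKM in WT, 264, 1455 and 1220 in Het and 1087, 824 and 806 in KO. Acta1 over Acta2 was 0.399, 0.415 and 0.545 in WT, 0.331, 0.280 and 0.279 in Het and 0.337, 1.44 and 0.495 in KO. Het library 1 was lowest for both actins, and the ratio exceeded 1 in KO library 2 alone. Actc1, the cardiac actin that is also made in young muscle, reached 2.66, 36.4 and 6.87 FPKM in KO and 3.53 in WT library 3, and at most 0.843 elsewhere. The coding sequences of the actins are nearly alike, so reads could be split between them, which was not tested.

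**Figure D3:**
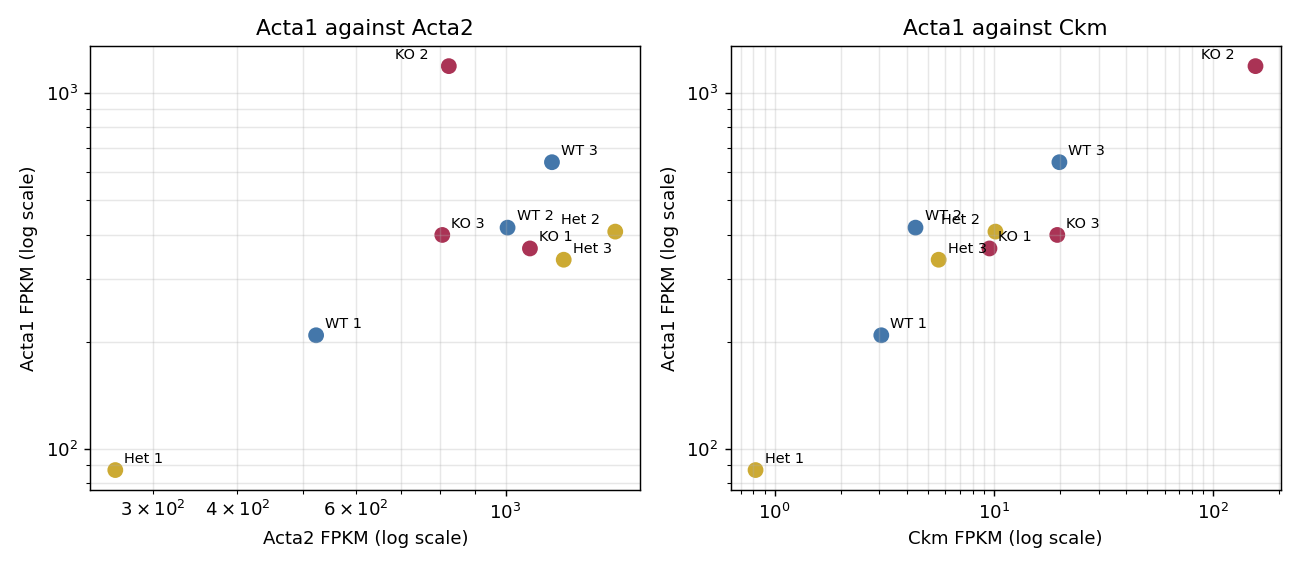
Acta1 FPKM against Acta2 FPKM (left) and against Ckm FPKM (right), log scales, 1 labelled point per library, coloured by genotype. Het library 1 is lowest for all 3 genes, and KO library 2, with 1189 FPKM of Acta1 and 156 of Ckm, stands apart from the other 8.

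Z-disc genes anchor the thin filaments. Tcap (telethonin, the cap of titin) was at 0.749, 0 and 24.9 FPKM in WT, 0, 0.291 and 0.978 in Het and 14.7, 141 and 21.9 in KO. Actn3, the alpha-actinin of fast fibres, was at 0.140, 0.448 and 4.69 in WT, 0.300, 0.841 and 0.151 in Het and 1.49, 67.7 and 7.22 in KO. Both again placed WT library 3 among the KO libraries. Myoz1, the fast myozenin, was at 0 in 4 libraries, at 0.229 FPKM in Het library 1, 4.02 in WT library 3 and 2.11, 41.2 and 5.15 in KO. Actn2, Ttn (titin) and Myot (myotilin) peaked in KO library 2 at 15.9, 1.49 and 17.0 FPKM. Ldb3 and Smpx were spread more evenly: Ldb3 had a median of 1.94 FPKM over the 9 libraries (0.328 to 12.1) and Smpx 5.83 (0 to 13.5).

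Myoz2, the slow myozenin, had 0 reads in the 6 WT and Het libraries and 5, 45 and 19 reads in KO libraries 1 to 3. Only 2 other members had reads in KO alone, the leucine-rich repeat genes Lrrc30 (12, 91 and 18 reads) and Lrrc2 (18, 54 and 10). Against a floor of 3 counts over the WT group, the KO mean was at least 25.9-fold higher for Myoz2, 45.9-fold for Lrrc30 and 31.0-fold for Lrrc2. Without KO library 2 the bounds were 12.9-fold, 16.3-fold and 15.4-fold. WT library 3, which carried most fast fibre genes, had none of the 3. These are the members with few reads, and the bounds cover counting error only.

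Calcium handling genes gave some of the sharpest contrasts. Atp2a1 (SERCA1, the calcium pump of fast fibres) was at 0.0438, 0 and 12.6 FPKM in WT, 0, 0.198 and 0 in Het and 4.51, 196 and 20.6 in KO. Pvalb (parvalbumin, the calcium buffer of fast fibres) was at 0, 0 and 25.3 in WT, 0 in each Het library and 5.72, 126 and 14.7 in KO. WT library 3 exceeded KO libraries 1 and 3 for Pvalb. Trdn (triadin) and Cacna1s (the voltage sensor) were likewise at 0 in WT libraries 1 and 2 and all Het libraries, with 53 and 9 reads in WT library 3 and 530 and 371 in KO library 2. Ryr1, the calcium release channel, ran from 0 to 0.0736 FPKM in those 5 libraries, was at 0.313 in WT library 3 and was at 0.324, 5.66 and 0.619 in KO.

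The calsequestrins, which store calcium, and Jph1 (junctophilin) behaved otherwise. Casq1, the fast form, was at 3.67, 1.13 and 13.7 FPKM in WT, 0.139, 8.61 and 13.1 in Het and 4.69, 45.4 and 6.93 in KO, so Het library 3 exceeded KO libraries 1 and 3. Casq2, the slow and cardiac form, was at 2.11, 5.23 and 5.09 in WT, 0.634, 6.53 and 3.45 in Het and 4.88, 8.75 and 3.08 in KO. Jph1 was at 0.162, 0.363 and 0.184 in WT, 1.15, 0.468 and 0.393 in Het and 0.659, 2.21 and 0.704 in KO. For Jph1 the WT libraries lay under all others, WT library 3 included.

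Most energy genes had reads outside the 4 libraries high in fast members too. Eno3, the muscle enolase of glycolysis, was at 5.69, 9.79 and 29.2 FPKM in WT, 11.4, 7.92 and 5.33 in Het and 23.7, 202 and 30.3 in KO. Pygm, glycogen phosphorylase, ran from 1.95 to 6.03 in WT libraries 1 and 2 and Het, was at 12.9 in WT library 3 and was at 8.06, 92.7 and 14.01 in KO. Mb, the oxygen store myoglobin, was at 0.578, 0.376 and 12.03 in WT, 0, 6.12 and 2.85 in Het and 9.05, 121 and 10.05 in KO. Ampd1, AMP deaminase, had 35 reads in WT library 3, 22, 262 and 18 in KO and none in the other 5.

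Across members, 14 had reads in all 9 libraries and 28 were at 0 in at least 1, 2 of them in all. KO library 2 was highest for 39 of the 40 with a read, with Myh7 the exception. Profiles over the members resembled each other among the libraries high in fast members and among several of the others. Pearson r of log2(FPKM + 0.01) over the 42 members was 0.906 to 0.960 between the KO libraries and 0.908 to 0.923 between WT library 3 and each of them. It was 0.926 between Het libraries 2 and 3 and 0.902 and 0.907 between WT library 1 and each of these, and 0.660 between Het libraries 1 and 2. KO library 2 had 0.487 with WT library 1 and 0.437 with Het library 1. These are correlations across genes, which share library and depth and are not replicates. Members at 0 in both libraries of a pair count as alike, and 11 of the 42 were at 0 in all 3 Het libraries. The 13 fast members with reads were a median 19.5-fold higher in KO library 2 than in KO library 1 (3.43 for Myh2 to 45.5 for Actn3), 8.57-fold higher than in KO library 3 (3.24 for Myh2 to 10.4 for Myh4) and 10.3-fold higher than in WT library 3 (3.31 for Casq1 to 25.9 for Myh2).

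In KO against WT, the members stood higher in the KO mean, but none passed over all genes. Of the 42, 36 entered the test, and Myh7, Myl2, Tnnc1, Tnnc2, Cacna1s and Myoz2 had too few reads. Members pass that filter through the libraries where they are high, so their counts are a description. All 36 had a log2 fold change above 0, against 50.6% of all 16836 genes tested, and 34 were above 1, against 8.43%. Their median was 3.36, against 0.01 over all genes. edgeR's quasi-likelihood test with Benjamini-Hochberg adjustment called 0 members and 0% of all genes in either direction (every adjusted p at 0.9996). Before adjustment, p was under 0.05 for 10 of the 36 as higher, against 2.2% of all genes, and for 0 as lower, against 1.37%. DESeq2 and limma voom also called 0 members, while DESeq2 called 0.0653% of all genes as higher and 0.0178% as lower.

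Single members had wide intervals in KO against WT. Myh4 differed by 4.30 (SE 2.76, 95% interval -2.68 to 11.28), Acta1 by 0.62 (SE 0.69, -0.98 to 2.22) and Ckm by 2.75 (SE 1.36, -0.45 to 5.95), as log2 fold changes (edgeR, adjusted p = 0.9996 each, n = 3 per group). The smallest standard errors belonged to Tnnt1 and Jph1: Tnnt1 differed by 1.95 (SE 0.58) and Jph1 by 2.32 (SE 0.68). The median of the members was 6.40 without WT library 3 and 1.35 without KO library 2.

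All KO libraries lay above all WT libraries for 10 of the 42 members (Myh2, Tnnt1, Tnni1, Ryr1, Neb, Myoz2, Myot, Jph1, Lrrc30 and Lrrc2) and below for 0. Myoz2 was not tested, which leaves 9 of 36 tested members, and over all genes tested 8.14% had KO above WT without overlap and 6.04% below. The count was 35 without WT library 3 and 27 without KO library 1. KO library 1 was the lowest of the 4 libraries high in fast members for most fast genes. With a library fewer, groups part more easily, and the share of all genes was not computed for these omissions.

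**Figure D4:**
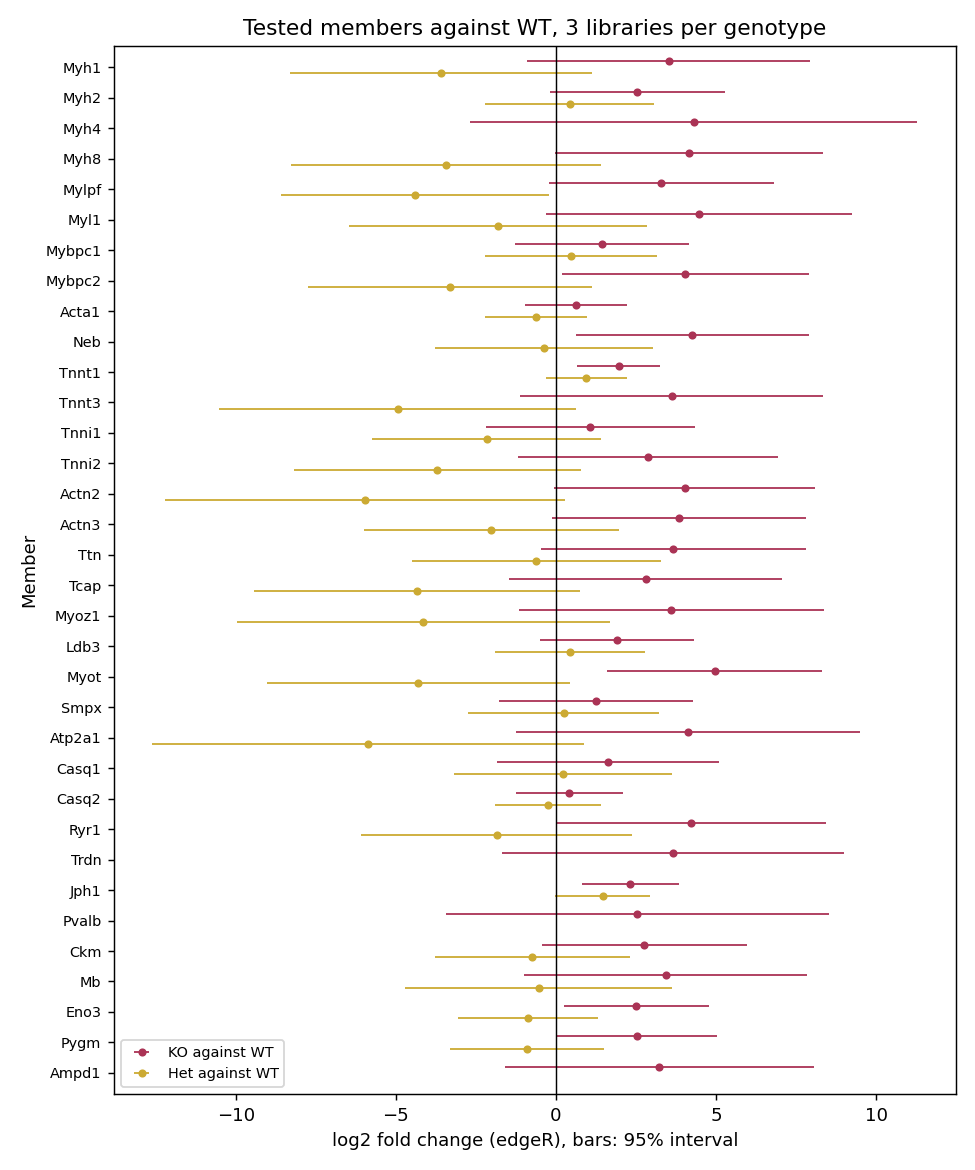
log2 fold change (edgeR) of the tested members in KO against WT and Het against WT, with 95% intervals from 3 libraries per genotype; members at 0 in all libraries of a group compared are not drawn. KO points lie above 0, from 0.42 (Casq2) to 4.95 (Myot), and most intervals of either comparison cross 0.

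In Het against WT the members leaned the other way, through WT library 3. Of the 36 tested, 27 were below 0, 7 above and 2 (Lrrc30 and Lrrc2) at 0 reads in both groups, with a median of -1.83 against -0.000301 over all genes, of which 50% were above 0. Without WT library 3 the median was 0.18. edgeR called 0 members (Benjamini-Hochberg adjusted p of at least 0.53) and 0% of all genes. At an unadjusted p under 0.05 it had 1 as lower, Mylpf (-4.40, SE 1.78), against 5.61% of all genes, and 0 as higher, against 3.43%. DESeq2 called Myh4 and Pvalb as lower, where 0.897% of all genes were, and 0 as higher (0.321%), and limma voom called 0. For Myh4 and Pvalb, the WT reads were in library 3 alone. Groups did not overlap for Mylpf and the untested Tnnc1 (lower in Het, 8.59% of all genes tested) and Jph1 (higher, 4.7% of all genes). KO against WT and Het against WT share the WT libraries.

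KO against Het was the comparison with the most members apart. All KO libraries exceeded all Het libraries for 30 of the 42 members and for 28 of the 36 tested, against 7.8% of all genes tested, and for 0 the reverse held (4.12%). The 12 others included Acta1, Ckm, Casq1, Casq2, Ldb3, Mybpc1, Jph1 and Smpx, all with reads in at least 2 Het libraries, and Myh7, Myl2, Tnnc1 and Tnnc2. For Myh4 the KO mean of 403 CPM was at least 7850-fold higher than 3 counts over the Het group, and for Pvalb at least 1010-fold. Without KO library 2 these bounds were 1300-fold and 213-fold. All 36 tested members were above 0, against 52% of all genes. Their median log2 fold change was 6.17 (5.67 with members at 0 in Het set to their bound) against 0.02 over all genes, and 3.97 without KO library 2.

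Here too edgeR called 0 members and 0% of all genes (lowest member adjusted p = 0.63, Myot). At an unadjusted p under 0.05 it had 25 of the 36 as higher, against 4.42% of all genes, and 0 as lower, against 1.81%. DESeq2 called 12 of the 36 as higher, against 0.927% of all genes, and 0 as lower, against 0.0772%: the fast fibre genes Myh1, Myh4, Mylpf, Tnnt3, Tnni2, Pvalb, Actn3 and Mybpc2, with Eno3, Actn2, Myot and Lrrc30. limma voom called 0. The Het libraries also had fewer genes with a read than the KO libraries (16878 to 17804 against 20160 to 20476). WT library 3 had 17940 such genes and reads on 36 members. The part of the number of genes with a read in the members at 0 was not tested.

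Genes of striated muscle outside the set did not all share this placing. The 50 in the table summed to 703, 1074 and 1330 CPM in WT, 556, 1362 and 1406 in Het and 1511, 2647 and 1044 in KO, so KO library 3 lay below WT libraries 2 and 3 and Het libraries 2 and 3. Des, the intermediate filament protein that smooth muscle also makes, was at 359 to 793 CPM in WT, 176 to 846 in Het and 440 to 897 in KO. Nrap, which binds the thin filament ends, was at 42.1 CPM in WT library 1 and 10.7 in WT library 3. In KO against WT, 44 of the 50 were tested and 43 lay above 0 (50.6% of all genes), with 0 called by edgeR. At an unadjusted p under 0.05, 12 of the 44 were higher (2.2% of all genes). The smallest p-values belonged to Synpo2l, Trim54, Trim72 and Srl, with log2 fold changes of 5.47 (SE 1.48), 5.46 (SE 1.72), 3.75 (SE 1.26) and 4.46 (SE 1.44). Myl3, the slow essential light chain, was at 0 in WT libraries 1 and 2 and all Het libraries, at 13.7 CPM in WT library 3 and at 5.82, 54.2 and 13.6 CPM in KO. Over the 9 libraries, the 10 genes outside the set with the highest Pearson r (0.973 to 0.987) to the members' mean log2 CPM were Xirp2, Ckmt2, Hfe2, Cox6a2, Mylk4, Pgam2, Ctxn3, Sln, Myom2 and Lrtm1. Xirp2, for example, was at 4.82 CPM in WT library 3, 2.03, 77.8 and 6.74 CPM in KO and 0 in the other 5. Of 16800 tested genes outside the set, 46 had an r above 0.9.

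Genes of muscle precursors and of the nerve contact were scarce. Of 17 myogenic regulators and satellite cell genes, 6 were tested, and Pax7, the satellite cell factor, had 3 reads in KO library 1, 10 in KO library 2 and 0 elsewhere. Myod1 had 23 reads in KO library 2, 12 in KO library 3 and 0 elsewhere, and Myf6, the regulator kept in adult fibres, 8, 118 and 12 in KO and 0 elsewhere. Mef2c, a partner of those factors and the smallest p of the list (log2 fold change 2.98, SE 0.85), was at 50.1 CPM in KO library 2 and 2.28 to 6.95 CPM in the other 8. Chrna1, a subunit of the muscle acetylcholine receptor, had 5, 81 and 4 reads in KO and 0 elsewhere. In the same comparison the smallest p of the nerve contact list was that of Colq, with 4.70 (SE 2.17), and edgeR called 0 genes of either list (2 of 6 and 0 of 6 as higher at an unadjusted p under 0.05, against 2.2% of all genes). Of the 12 cardiac genes, Nppb, Mybpc3 and Nkx2-5 were at 0 in all 9 libraries, but others had reads and 7 were tested. The list summed to 16.7, 68.3 and 40.5 CPM in Het and 56.1, 102 and 49.6 in KO. Each WT library lay below the lowest KO library in this sum. Tnnt2, cardiac troponin T, was at 57.1 CPM in Het library 2, 24.6 to 37.5 in KO and 4.28 to 17.6 in WT. In KO against WT, 3 of the 7 were above 0 (50.6% of all genes).

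Markers of neighbouring tissue did not all follow the muscle genes. The 12 smooth muscle genes (1 of them, Des, also in the striated list) summed to 3987 to 7935 CPM in WT, 1401 to 9415 in Het and 5281 to 7171 in KO, with 8 of 12 above 0 in KO against WT, where 50.6% of all genes were. Nerve and Schwann cell genes summed to 147 to 162 CPM in WT, 94.1 to 254 in Het and 207 to 238 in KO. All 13 nerve genes tested were above 0 in KO against WT, with a median of 0.91, and 7 of the 13 had every KO library above every WT library (8.14% of all genes). Tendon and muscle connective tissue genes summed to 62.6 to 100 CPM in WT, 64.6 to 78.5 in Het and 89.0 to 98.1 in KO. Adipocyte genes summed to 53.1 to 496, 181 to 223 and 236 to 310 CPM, lowest in WT library 3.

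Svs1, Svs3a, Svs3b, Svs6 and Sva of the seminal vesicle list had the same 4 high libraries. Svs2, Svs5 and Pate4 were instead highest in Het library 2, at 230388, 91436 and 25975 CPM. Svs4 was highest in KO, at 17786, 11954 and 34715 CPM, with 10936 in Het library 2, 10893 in WT library 3 and at most 2863 elsewhere. Svs1, a secretory protein gene, was at 2485 CPM in WT library 3 and 2457, 3492 and 7663 CPM in KO, against 2.40 and 254 in WT libraries 1 and 2 and 0 to 12.3 in Het. Svs6 was at 1890 CPM in WT library 3 and 3282, 3621 and 4494 CPM in KO, and at most 264 elsewhere. The 9 seminal vesicle genes together summed to 31150 to 221300 CPM in WT, 6587 to 358800 in Het and 96670 to 194400 in KO, and were highest in Het library 2, where Myh4 was at 0. Urothelial genes summed to 249 to 400 CPM in WT, 438 to 564 in Het and 522 to 581 in KO. In KO against WT, 7 of 8 were above 0 (50.6% of all genes). For 5 of 8, every KO library lay above every WT library (8.14% of all genes). The gap was narrow for Upk1a, with 148 CPM in KO library 2 and 147 in WT library 2. The part of these tissues in the muscle values was not tested.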

How the data were processed

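The authors deposited raw read counts per gene and FPKM values per library; a table of FPKM means per genotype was not used. Libraries were polyA-enriched after a Qiagen extraction, per the labels' protocols. The submitters' processing notes name GRCm38 (mm10) as the build. The sources used here do not give the aligner, the counter or the strand setting. Libraries were assigned to genotypes from the sample descriptions, with replicate numbers in accession order.

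Counts of all 9 libraries entered 1 edgeR 4.0.16 quasi-likelihood fit (R 4.3.3, TMM, filterByExpr, robust) with genotype as the only factor. Of 54532 genes, 16836 were tested, and calls used a Benjamini-Hochberg adjusted p under 0.05 over all of them. The standard error is |log2 fold change| divided by the root of F. Floors are 3 counts. The fit was tested on simulated data. Alternatives were RLE size factors, library totals without the members, 2 other low-count filters, DESeq2 1.42.0, limma 3.58.1 voom and leaving out each library. Exon overlap came from GENCODE vM21, with genes matched by identifier, and promoters from RefSeq (GRCm38.p6).

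The members, gene lists and role groups were chosen with earlier results of these data known. The rule for named genes took both markers, the myosin heavy chains, the fast and slow lists, the 2 highest and 1 lowest member of each role by mean FPKM, genes at 0 reads, up to 4 genes per other list by p in KO against WT, and the 10 genes most like the members. Acta2, Ube2c, the seminal vesicle genes other than Svs6, Myl3, Pax7, Myod1, Myf6 and Chrna1 were added after their values were seen. One item is not reported here.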

Additional observations from a re-analysis of the deposited data

How the results depend on the processing

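edgeR called 0 members in all 3 comparisons under every normalisation, filter and omission of 1 library that was run, as did limma voom. DESeq2 called 2 in Het against WT and 12 in KO against Het. Over all genes DESeq2 called 14 in KO against WT, 205 in Het against WT and 169 in KO against Het, where edgeR called 0; edgeR without a low-count filter called 2 in KO against Het. Leaving out 1 library gave 0 to 1, 0 to 258 and 0 to 18 genes, the highest each time without Het library 1. Members whose groups did not overlap numbered 10 to 35 in KO against WT and 3 to 8 in Het against WT (8 without WT library 1, 5 without WT library 2 or Het library 1), and 30 to 33 in KO against Het. The share of all genes without overlap was not computed for the omissions, so these ranges are a description. The members' median in Het against WT ran from -2.23 to 0.18 over omissions, 0.18 being without WT library 3. Over omissions the mean share of members' reads ran from 0.0612% to 0.122% in WT, 0.0439% to 0.0722% in Het and 0.126% to 0.536% in KO. The mean ratio of fast to slow members ran from 1.19 to 15.3 in WT, where it was 1.19 without WT library 3, from 1.25 to 2.10 in Het and from 21.3 to 68.4 in KO. Without the highest member of each list (Tnnt3 and Casq2) it was 47.8 in WT in place of 10.4, 4.30 in Het in place of 1.79 and 82.0 in KO in place of 48.4, as the slow list then holds few reads. With at most 14 reads in a library on Myh7, Tnni1 and Tnnc1, small differences in these 3 slow fibre genes were not detectable at this depth. No paired analysis was possible because the labels give no replicate numbers that the genotypes share.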
